A study of Mus with 96 samples.

Results

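The 8 liver enzymes examined were the tyrosine aminotransferase Tat, the tryptophan 2,3-dioxygenase Tdo2, the cytosolic aspartate and alanine aminotransferases Got1 and Gpt, and the catabolic enzymes Hpd, Hgd, Fah, and Haao. They were chosen by name, as enzymes of aromatic amino acid breakdown and of amino group transfer. All 8 were found among the 55487 genes of the count table and among the 15548 genes that were tested.

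The liver is the main site where surplus phenylalanine, tyrosine, and tryptophan are degraded. Tat removes the amino group of tyrosine, Hpd and Hgd oxidise the product and open its ring, and Fah splits the last intermediate into fumarate and acetoacetate. Tdo2 opens the indole ring of tryptophan at the entry of the kynurenine pathway, and Haao acts further down that pathway, on the way to quinolinate and NAD. Got1 and Gpt exchange amino groups between amino acids and 2-oxoglutarate, and the serum activities of aspartate and alanine aminotransferases are clinical readouts of liver injury. Tat and Tdo2 are classical glucocorticoid targets in liver.

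Livers came from 96 mice, in 4 groups of 24. Each group held 4 mice at each of zeitgeber times (ZT) 2, 6, 10, 14, 18, and 22. The mice were 8 to 10 weeks old when they entered the experiment, before the diets were given. Hep-Bmal1KO mice were AlbCre/+ Bmal1flx/flx, and Hep-Bmal1WT mice were Alb+/+ Bmal1flx/flx littermates, so the floxed allele was carried by both genotypes and Cre only by the knockouts. Cre was driven by the albumin promoter, which is active in hepatocytes, and the study describes the deletion as specific to hepatocytes. Whether all other liver cells kept Bmal1 was not tested. For 2 weeks each genotype received either chow, with 27% protein and 14% fat, or cdHFD, a diet without choline that was rich in fat, low in methionine, and supplemented with cholesterol, with 9% protein and 60% fat. The diets thus differed in protein content as well as in fat, choline, and cholesterol. Each group held 12 males and 12 females, except Hep-Bmal1WT livers on cdHFD, with 13 males and 11 females. At most ZTs replicates 1 and 2 were males and replicates 3 and 4 females. The exceptions were ZT2 on cdHFD in both genotypes and ZT14 on cdHFD in Hep-Bmal1WT livers. Leaving out a replicate number thus mostly removes mice of 1 sex.

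Each library was a bulk 3′-end library (BRB-seq), with 1861740 to 9718615 reads counted on genes and a median of 6412078. The deletion could not be checked from the Bmal1 gene itself, listed as Arntl, because reads were counted over whole genes and not for the floxed exon. Each library was therefore placed between the genotypes by its clock genes and, separately, by genes chosen at the other ZTs, none of them a member. On both measures 7 of the 96 libraries lay nearer the other genotype than the one on their label: in Hep-Bmal1WT livers ZT6 replicate 2 and ZT18 replicate 4 on chow and ZT10 replicate 3 and ZT14 replicate 1 on cdHFD, and in Hep-Bmal1KO livers ZT6 replicate 4 and ZT10 replicate 3 on chow and ZT14 replicate 1 on cdHFD. The libraries were kept under their labels, and the counts of members called by diet, genotype, sex, and rhythm are given with and without these 7. They were picked by genes that differ between the genotypes, so leaving them out favours wider genotype differences. Genotype calls over all genes rose from 1960 to 2656 on chow and from 1494 to 2024 on cdHFD without them. The library names in the labels read as wells of a plate, and by these names each column held 1 combination of genotype and diet, so plate column and group cannot be told apart. Levels below are CPM, read counts scaled to a common library size by TMM, and fold changes are on the log2 scale with their standard error. The TMM factors ran from 0.766 to 0.929 on chow and from 1.04 to 1.35 on cdHFD, without overlap. The scaling therefore raised chow levels and lowered cdHFD levels, and it enters every diet difference. Calls are Benjamini-Hochberg adjusted p under 0.05 over all genes tested in edgeR's quasi-likelihood test, with ZT as a factor.

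On cdHFD, the transcripts of 7 of the 8 enzymes were lower in Hep-Bmal1WT livers, and those of all 8 were lower in Hep-Bmal1KO livers. Of all genes tested, 55.7% changed with diet in Hep-Bmal1WT livers and 27% were lower, and 61.9% changed in Hep-Bmal1KO livers and 29.6% were lower. The median log2 fold change of the 8 members was -1.25 in Hep-Bmal1WT and -1.34 in Hep-Bmal1KO livers, against 0.013 and 0.023 over all genes. TMM scaling centres most genes at no change, so such medians over all genes follow from it, here and for the genotypes. Both counts, 7 and 8, were the same without the 7 libraries. The diet and genotype comparisons share libraries, so they are not independent of each other.

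Along the tyrosine branch, Tat (chr8:109986078-109999804 in GRCm38.p6) ranged in Hep-Bmal1WT livers from 282 CPM through a median of 617 to 864 on chow and from 102 through 264 to 543 on cdHFD. The ranges overlapped, and the fold change was -1.13 (SE 0.13, adjusted p = 9.48e-11). In Hep-Bmal1KO livers Tat ranged from 265 through 553 to 1198 CPM on chow and from 164 through 286 to 622 on cdHFD, again with overlap, and the fold change was -0.79 (SE 0.12, adjusted p = 1.01e-07). Hpd, 4-hydroxyphenylpyruvate dioxygenase (chr5:123171807-123182723), which takes up the product of Tat, ranged from 1221 through 1821 to 3075 CPM on chow and from 454 through 686 to 1038 on cdHFD in Hep-Bmal1WT livers. Every one of the 24 cdHFD libraries lay below every chow library. In Hep-Bmal1KO livers the ranges were 1506 through 2302 to 3280 and 322 through 671 to 995 CPM, with no overlap either. The fold change of Hpd was -1.47 (SE 0.082) in Hep-Bmal1WT and -1.78 (SE 0.079) in Hep-Bmal1KO livers.

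Hgd, homogentisate 1,2-dioxygenase (chr16:37579742-37632026), ranged from 475 through 608 to 817 CPM on chow and from 256 through 312 to 478 on cdHFD in Hep-Bmal1WT livers. The overlap came from 1 cdHFD library, ZT14 replicate 1, one that lay against its label, which exceeded 3 chow libraries of ZT10 at 475 to 477 CPM. In Hep-Bmal1KO livers Hgd ranged from 536 through 727 to 998 CPM on chow and from 234 through 341 to 483 on cdHFD, without overlap. Its fold changes were -0.94 (SE 0.059) and -1.13 (SE 0.064). Fah, fumarylacetoacetate hydrolase (chr7:84585159-84605942), ranged from 453 through 526 to 839 CPM on chow and from 208 through 268 to 434 on cdHFD in Hep-Bmal1WT livers, and from 450 through 606 to 861 and 209 through 270 to 389 in Hep-Bmal1KO livers. Neither genotype showed overlap between the diets for Fah, with fold changes of -0.95 (SE 0.051) and -1.15 (SE 0.061).

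In the kynurenine pathway, Tdo2 (chr3:81958412-81975728) ranged from 628 through 1100 to 1614 CPM on chow and from 242 through 408 to 584 on cdHFD in Hep-Bmal1WT livers. In Hep-Bmal1KO livers it ranged from 691 through 979 to 1477 and from 205 through 319 to 612 CPM. The diets did not overlap in either genotype, and the fold changes were -1.37 (SE 0.094) and -1.63 (SE 0.071). Haao, 3-hydroxyanthranilate 3,4-dioxygenase (chr17:83831348-83848981), had the largest diet difference of the 8 members in both genotypes. It ranged from 268 through 355 to 483 CPM on chow and from 70.8 through 97.03 to 173 on cdHFD in Hep-Bmal1WT livers, and from 307 through 375 to 493 and 28.3 through 84.5 to 127 in Hep-Bmal1KO livers. The diets were fully separated in both genotypes, with fold changes of -1.82 (SE 0.058) and -2.19 (SE 0.084), and the lowest library still held 229 reads of Haao.

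Of the transaminases, Got1 was lower on cdHFD in both genotypes, and Gpt passed the test in Hep-Bmal1KO livers alone. Got1 (chr19:43499752-43524605) ranged from 89.7 through 195 to 558 CPM on chow and from 38.2 through 71.4 to 178 on cdHFD in Hep-Bmal1WT livers, and from 144 through 369 to 572 and 52.4 through 110 to 289 in Hep-Bmal1KO livers. The ranges overlapped in both genotypes, and the fold changes were -1.39 (SE 0.15) and -1.53 (SE 0.16). Gpt (chr15:76696726-76699675) ranged in Hep-Bmal1WT livers from 131 through 273 to 392 CPM on chow and from 129 through 247 to 329 on cdHFD. Its fold change there, -0.10 (SE 0.064, 95% interval -0.23 to 0.024, adjusted p = 0.18), did not pass the threshold. In Hep-Bmal1KO livers Gpt ranged from 167 through 317 to 440 CPM on chow and from 99.1 through 222 to 314 on cdHFD, and its fold change of -0.51 (SE 0.073, adjusted p = 2.69e-08) did.

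All 24 cdHFD libraries lay below all 24 chow libraries for 4 members in Hep-Bmal1WT livers (Tdo2, Hpd, Fah, and Haao) and for 5 in Hep-Bmal1KO livers (the same 4 and Hgd), against 1.54% and 2.55% of all genes. The group means were lower on cdHFD at every one of the 6 ZTs for 7 members in Hep-Bmal1WT livers, Gpt being the exception, and for 8 in Hep-Bmal1KO livers, against 19.4% and 22.5% of all genes. Without the 7 libraries the diets were separated for 5 members in each genotype, Hgd now among them in Hep-Bmal1WT livers, against 1.72% and 3.31% of all genes, and the counts over ZT means were again 7 and 8.

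**Figure D1:**
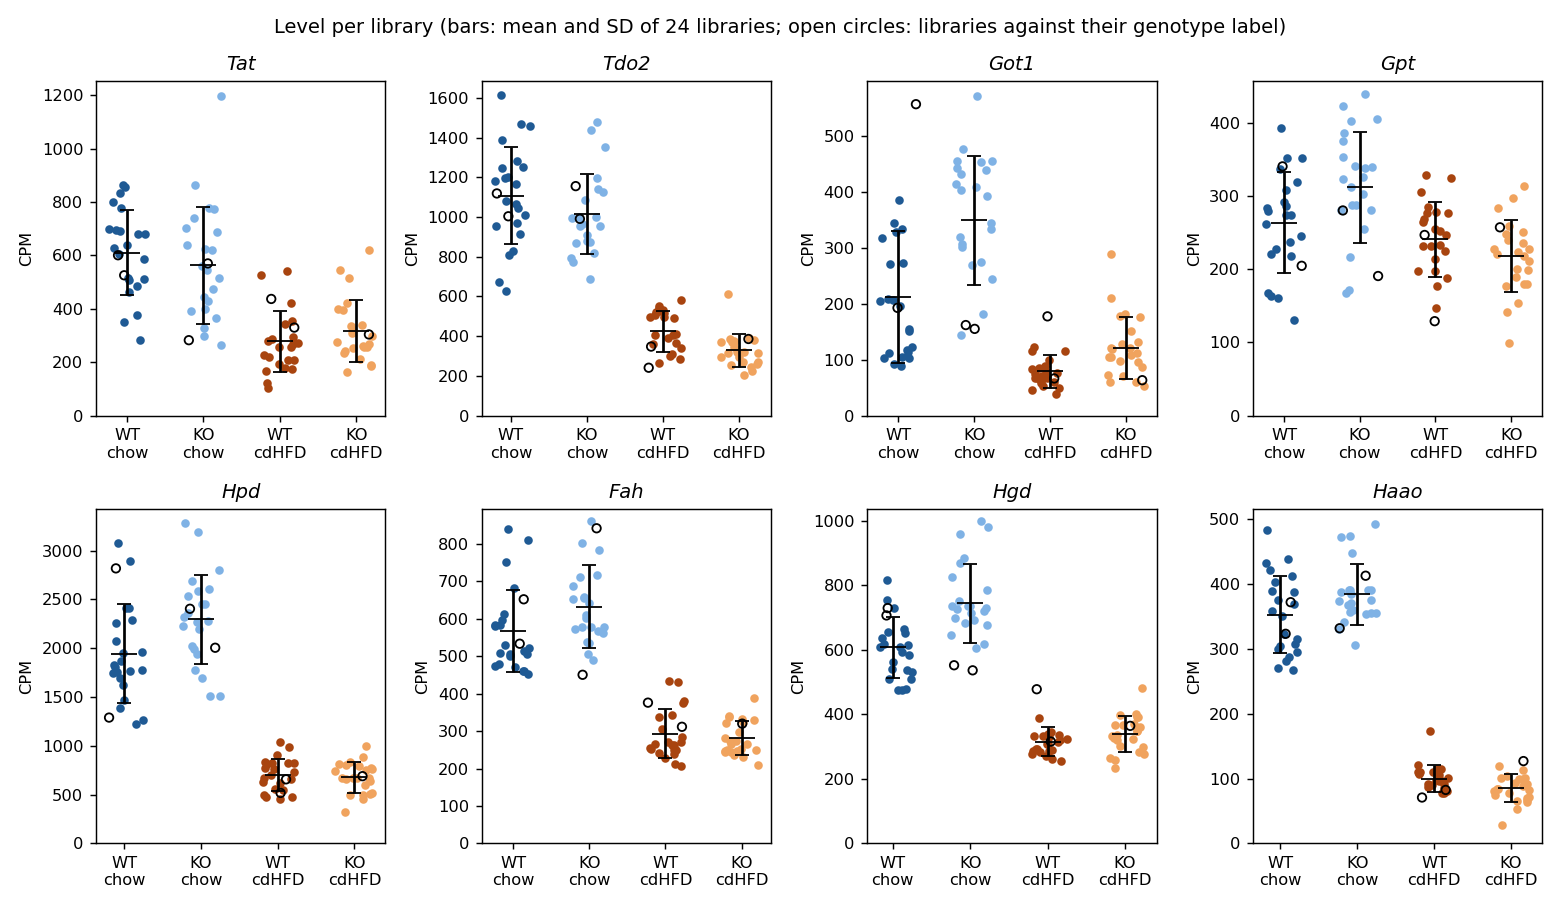
Level of each enzyme in CPM (vertical axis, from 0) in the 24 libraries of each genotype and diet (points), with the mean and SD as bars and the libraries that lay against their genotype label as open circles. The cdHFD means sit below the chow means of the same genotype throughout, least so for Gpt, whose Hep-Bmal1WT groups have medians of 273 and 247 CPM.

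Markers of several liver cell types moved with the diet, not all in 1 direction. Of 4 endothelial markers 2 were higher and 1 lower on cdHFD in each genotype. Of 4 cholangiocyte markers 1 was higher in Hep-Bmal1WT and 2 in Hep-Bmal1KO livers. Of 2 T and B cell markers 1 was higher in Hep-Bmal1WT and 0 in Hep-Bmal1KO livers. Both neutrophil markers were higher and both erythrocyte markers lower in each genotype. All 5 hepatocyte markers (Alb, Apoa1, Ttr, Cps1, and Hnf4a) were lower on cdHFD in both genotypes, by a median log2 fold change of -1.07 (range -1.23 to -0.81) in Hep-Bmal1WT and -0.86 (range -1.27 to -0.58) in Hep-Bmal1KO livers. Their summed level ranged from 84683 through 144414 to 198585 CPM on chow and from 50880 through 70963 to 87623 on cdHFD in Hep-Bmal1WT livers, and from 70357 through 93818 to 201901 and 45777 through 59595 to 80858 in Hep-Bmal1KO livers. The summed level of 6 macrophage markers ranged from 208 to 548 CPM on chow and from 953 to 2407 on cdHFD in Hep-Bmal1WT livers, and from 176 to 558 and 1325 to 2746 in Hep-Bmal1KO livers. That of 5 stellate cell markers ranged from 168 to 358 and 474 to 991 CPM in Hep-Bmal1WT livers and from 151 to 379 and 471 to 1429 in Hep-Bmal1KO livers. None of the hepatocyte, macrophage, or stellate cell markers was at 0 over a group, and their part in the diet result was not tested. In bulk liver, fewer hepatocytes and less RNA per hepatocyte cannot be told apart.

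The comparison of genotypes asked whether loss of Bmal1 in hepatocytes moved the same enzymes at a given diet. On chow, 5 of the 8 members were higher in Hep-Bmal1KO livers and none was lower, where 12.6% of all genes were called, 7% higher and 5.61% lower. The median over the 8 members was 0.20 on the log2 scale, against -0.012 over all genes. Without the 7 libraries 4 of the 5 calls stood, and Hpd had an adjusted p of 0.054, while calls over all genes rose from 1960 to 2656. Leaving out each replicate number in turn left 2 to 4 calls, with Got1 and Hgd called each time.

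Got1 showed the largest genotype difference of the 8 on chow, 0.75 (SE 0.15, adjusted p = 0.00055), and 0.88 without the 7 libraries. Its Hep-Bmal1KO mean was above the Hep-Bmal1WT mean at all 6 ZTs, although the 24 libraries of each genotype overlapped. At ZT10 the Hep-Bmal1WT mean was 97.5 ± 7.64 CPM and the Hep-Bmal1KO mean 202 ± 79.7 (SD, n = 4 each). Replicate 3 of these Hep-Bmal1KO libraries is among the 7 against their label. Hgd was higher by 0.29 (SE 0.055, adjusted p = 0.00021), also in all 6 pairs of means, as were 7.45% of all genes and, of the members, Got1 and Fah, and its 4 Hep-Bmal1KO libraries lay above all 4 Hep-Bmal1WT libraries at 3 ZTs. At ZT2 those libraries read 825, 957, 980, and 998 CPM of Hgd in Hep-Bmal1KO livers and 539, 594, 665, and 754 in Hep-Bmal1WT livers. Over all genes and ZTs, 3.13% of the gene and ZT pairs showed such a separation upward.

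Gpt was higher by 0.26 (SE 0.066, adjusted p = 0.0056), Hpd by 0.25 (SE 0.086, adjusted p = 0.047), and Fah by 0.16 (SE 0.046, adjusted p = 0.016). The Gpt means were higher in Hep-Bmal1KO livers at 4 ZTs and nearly equal at ZT18 and ZT22, at 353 against 359 and 305 against 306 CPM. At ZT6 the Gpt libraries read 280, 326, 338, and 423 CPM in Hep-Bmal1KO livers and 205, 237, 246, and 279 in Hep-Bmal1WT livers, without overlap. Each genotype held 1 of the 7 libraries against their label at this ZT. Tat (-0.17, adjusted p = 0.34), Tdo2 (-0.12, adjusted p = 0.27), and Haao (0.13, adjusted p = 0.14) did not pass. Of the 5 hepatocyte markers 2 were lower in Hep-Bmal1KO livers on each diet, Alb at -0.83 on chow and -0.28 on cdHFD and Hnf4a at -0.29 and -0.25, and the other 3 were not called. The summed level of 4 cholangiocyte markers ranged from 6.10 to 39.6 CPM in Hep-Bmal1WT and from 9.61 to 59.1 in Hep-Bmal1KO livers on chow, and 1 of them, Sox9, was higher in Hep-Bmal1KO livers (1.06). The part of these markers in the genotype result was not tested.

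On cdHFD, 3 of 8 members were called, 1 higher and 2 lower in Hep-Bmal1KO livers, where 9.61% of all genes were called, 4.62% higher and 4.99% lower. Got1 was again higher, by 0.61 (SE 0.14, adjusted p = 0.0020), with a higher mean at all 6 ZTs, as for 6.28% of all genes. The entry enzyme of tryptophan breakdown, Tdo2, was lower, at -0.38 (SE 0.090, adjusted p = 0.0033), and Haao, downstream in the same pathway, was lower too, at -0.25 (SE 0.079, adjusted p = 0.036). At ZT2 Tdo2 read 269, 318, 371, and 391 CPM in Hep-Bmal1KO livers and 407, 492, 509, and 533 in Hep-Bmal1WT livers, without overlap. This was the only 1 of the 6 ZTs with such a separation, which 2.73% of gene and ZT pairs over all genes showed downward. At ZT14 the Tdo2 mean was 425 CPM in Hep-Bmal1KO and 416 in Hep-Bmal1WT livers. The other members gave values from -0.15 (Gpt, adjusted p = 0.16) to 0.18 (Tat, adjusted p = 0.46). The 3 calls stood without the 7 libraries, at 0.70 for Got1, -0.42 for Tdo2, and -0.28 for Haao. Calls over all genes rose from 1494 to 2024 in that setting, which favours wider genotype differences. Leaving out each replicate number in turn left 1 to 4 calls, and Got1 was called each time. In the sexes alone 1 member was called, Tdo2 in males and Got1 in females. Without the 7 libraries the Tdo2 and Haao means were lower in Hep-Bmal1KO livers at all 6 ZTs, as for 6.81% of all genes.

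Markers of other liver cells also differed between the genotypes on cdHFD. Of 5 stellate cell markers 4 were higher in Hep-Bmal1KO livers (Col1a1 0.60, Col3a1 0.49, Reln 0.28, and Dcn 0.25), as were both neutrophil markers (S100a8 0.46 and S100a9 0.38) and 2 of 4 cholangiocyte markers (Epcam 1.15 and Sox9 0.68). Of 6 macrophage markers Lyz2 was higher (0.35) and Clec4f lower (-0.35). The summed levels in Hep-Bmal1WT and Hep-Bmal1KO livers ranged from 474 to 991 and 471 to 1429 CPM for the stellate cell markers and from 48.4 to 101 and 39.9 to 184 for the neutrophil markers. For the cholangiocyte markers they ranged from 11.2 to 45.5 and 15.3 to 107 CPM, and for the macrophage markers from 953 to 2407 and 1325 to 2746. The part of these markers in the genotype calls on cdHFD was not tested.

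**Figure D2:**
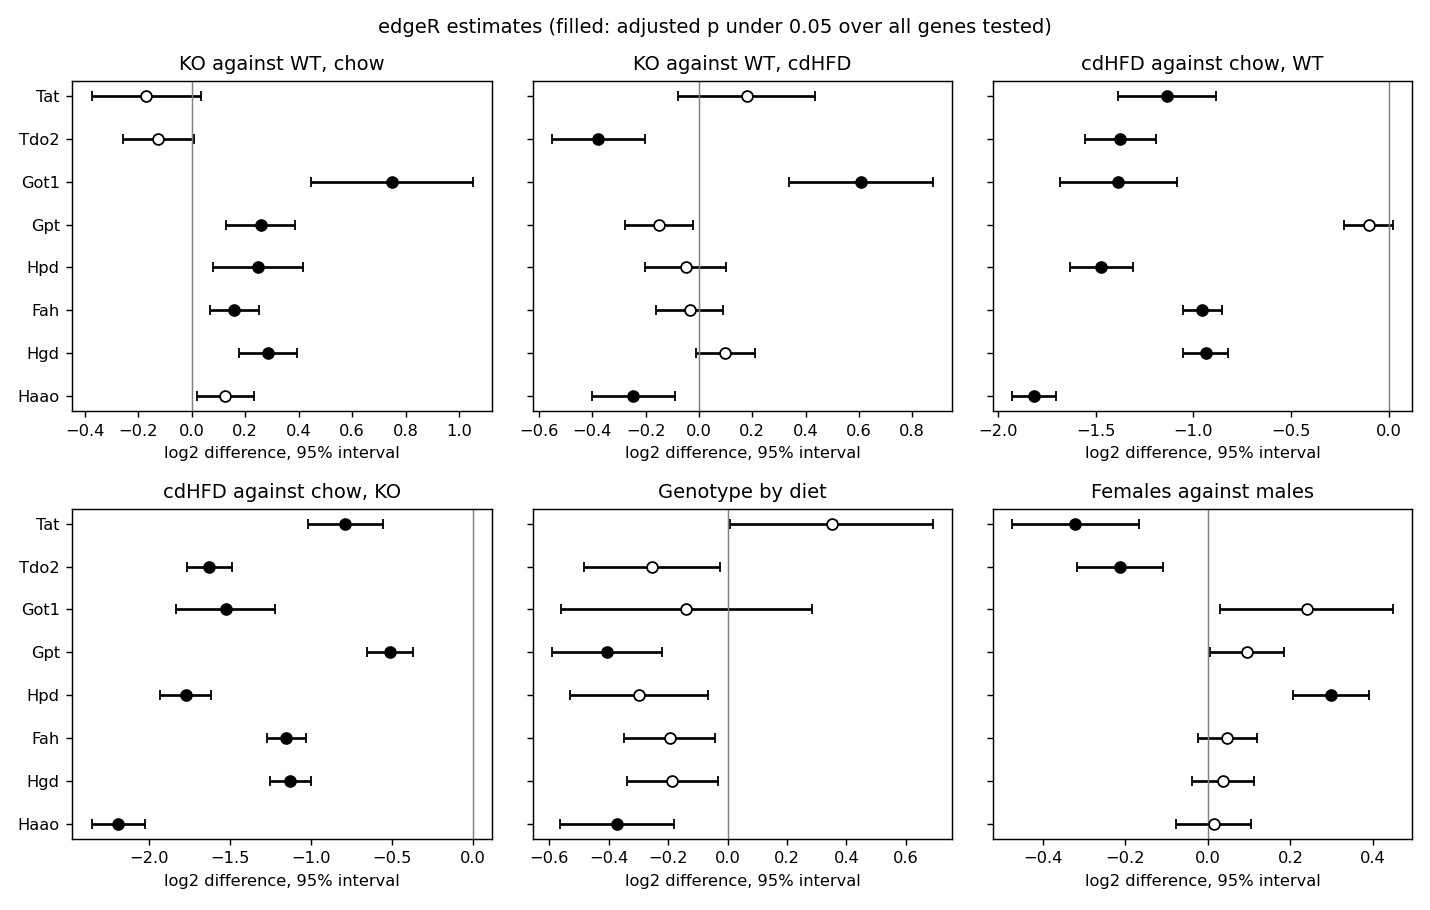
Log2 difference of each enzyme with its 95% interval from edgeR (horizontal axis) for both genotype comparisons, both diet comparisons, genotype by diet, and sex, with filled points where the adjusted p was under 0.05. The diet differences run from -0.10 (Gpt, Hep-Bmal1WT) to -2.19 (Haao, Hep-Bmal1KO), and the genotype differences from -0.38 (Tdo2, cdHFD) to 0.75 (Got1, chow).

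The difference of the genotype effects between diets was tested directly over all 96 libraries. It was called for 2 of 8 members, against 3.04% of all genes. The genotype effect on cdHFD minus that on chow was -0.41 for Gpt (SE 0.095, adjusted p = 0.0060) and -0.37 for Haao (SE 0.098, adjusted p = 0.017). For Gpt the group means were 263 ± 68.4 (Hep-Bmal1WT) and 312 ± 75.5 CPM (Hep-Bmal1KO) on chow and 241 ± 50.9 and 218 ± 49.3 on cdHFD (SD, n = 24 each). For Haao they were 353 ± 59.8 and 384 ± 47.1 CPM on chow and 100.1 ± 20.6 and 85.1 ± 21.9 on cdHFD. For the other 6 members the values ran from -0.30 (Hpd, adjusted p = 0.16) to 0.35 (Tat, adjusted p = 0.29), and the difference was not shown. Both calls stood without the 7 libraries, where calls over all genes rose from 473 to 919. However, 0 to 2 of them stood when each replicate number was left out in turn.

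A daily rhythm, tested with a cosine and a sine term of 24 hours, was called for 5 of 8 members in Hep-Bmal1WT livers on chow, where 19.1% of all genes were called. Among the 5 called, Gpt had the largest amplitude, 0.44 (SE 0.071) on the log2 scale with its peak at ZT 20.1, in the dark phase. The amplitude of Got1, which was not called, was 0.48 (SE 0.20, adjusted p = 0.15). The 4 Gpt libraries read 131 to 167 CPM at ZT10 and 340 to 392 at ZT18. Tat had an amplitude of 0.36 (SE 0.097) and peaked at ZT 16.7, Hpd 0.31 (SE 0.088) at ZT 20.5, Haao 0.26 (SE 0.047) at ZT 22.0, and Fah 0.27 (SE 0.055) at ZT 8.88. Fah thus peaked in the light phase, whereas Tat and Hpd of the same branch peaked in the dark phase. Amplitudes were computed on variance-stabilised values, which are in log2 units. Without the 7 libraries 4 of these calls stood and Hpd did not, and with each replicate number left out in turn 2 to 4 members were called, Gpt and Fah each time.

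In Hep-Bmal1WT livers on cdHFD, 3 of 8 members were called, against 14.6% of all genes. Got1 had an amplitude of 0.38 (SE 0.12) with its peak at ZT 19.2, Hpd 0.32 (SE 0.079) at ZT 21.9, and Haao 0.24 (SE 0.059) at ZT 23.8. Hpd and Haao were called on both diets. The peak on cdHFD was later by 1.40 h for Hpd (adjusted p = 0.46) and by 1.79 h for Haao (adjusted p = 0.21), neither past the threshold, which 40% of the genes rhythmic on both diets passed. None of the 3 was called without replicate 1 or without replicate 2. These were males at most ZTs, and the 3 were called in males only while 0 were called in females only. The replicate runs are thus no check apart from sex.

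In Hep-Bmal1KO livers no member was called rhythmic by edgeR on either diet, where 4.34% (chow) and 3.83% (cdHFD) of all genes were. At an unadjusted p under 0.05 there were 2 members on chow (Tdo2 and Fah) and 3 on cdHFD (Tat, Got1, and Hgd), against 20.3% and 19.3% of all genes. DESeq2 called 1 member on each diet, Fah on chow and Tat on cdHFD. Without the 7 libraries edgeR called Fah on chow (amplitude 0.23, adjusted p = 0.024) and Got1 on cdHFD (amplitude 0.49, adjusted p = 0.044).

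A call in 1 group and not in another does not show that the rhythms differ, and the test of the difference itself called none of the 8 members. Between genotypes it called 0.392% of all genes on chow and 0.424% on cdHFD, and between diets 6.19% in Hep-Bmal1WT and 0.907% in Hep-Bmal1KO livers. At an unadjusted p under 0.05 the 4 tests counted 1, 0, 2, and 2 members, against 8.02%, 6.21%, 19.3%, and 14.1% of all genes, and DESeq2 called none in any of them. EdgeR called 0 members in each of the 4 without the 7 libraries. None of the 32 amplitude differences passed either, against 0.0193% of all genes for each genotype comparison, 0.0579% for diet in Hep-Bmal1WT livers, and 0% in Hep-Bmal1KO livers. At an unadjusted p under 0.05 there were 3 of them, a lower amplitude of Gpt on cdHFD in Hep-Bmal1WT livers (-0.33, SE 0.12) and lower amplitudes of Hpd (-0.28, SE 0.12) and Haao (-0.21, SE 0.068) in Hep-Bmal1KO livers on chow. Haao came nearest between genotypes on chow, with an adjusted p of 0.12 from edgeR. At ZT6 the Haao libraries read 413, 473, 475, and 493 CPM in Hep-Bmal1KO livers and 307, 324, 324, and 376 in Hep-Bmal1WT livers, without overlap. Each genotype held 1 of the 7 libraries against their label there, and 3.13% of gene and ZT pairs over all genes showed such a separation upward. At ZT22 the Haao means were 374 ± 22.7 and 420 ± 51.7 CPM (SD, n = 4 each).

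**Figure D3:**
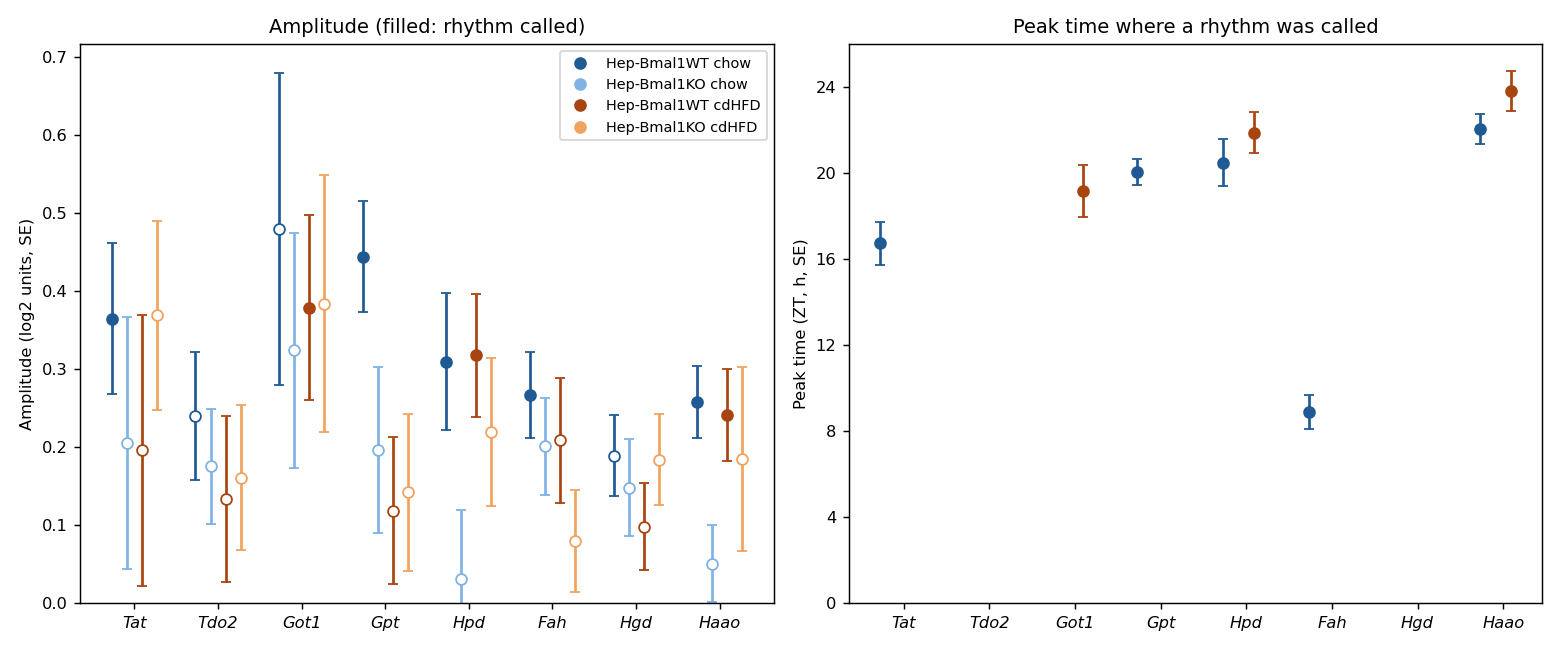
Left, the amplitude of a 24-hour cosine on variance-stabilised values (log2 units) with its SE in each group, filled where a rhythm was called. Right, the peak time in ZT hours with its SE for the called rhythms only, which lie between ZT 16.7 and ZT 23.8 except that of Fah at ZT 8.88.

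Over the 32 combinations of member and group, the lowest of the 6 ZT means fell at ZT10 in 19, covering 6 of the genes. By group these were 5, 5, 5, and 4 of 8 members, against 25.8%, 25.1%, 25.3%, and 24.7% of all genes (Hep-Bmal1WT and Hep-Bmal1KO on chow, then on cdHFD). Fah ran the other way, with its highest mean at ZT10 and its lowest at ZT22 in all 4 groups. The count was again 19 without the 7 libraries, and the lowest Fah mean in Hep-Bmal1WT livers on chow moved to ZT18. On chow its ZT10 libraries read 682, 751, 811, and 839 CPM in Hep-Bmal1WT livers and 717, 803, 842, and 861 in Hep-Bmal1KO livers, against 461, 473, 501, and 508 and 489, 536, 538, and 578 at ZT22, with no overlap between the times. In Hep-Bmal1KO livers on cdHFD the Fah means at the same times were 301 ± 69.1 and 264 ± 51.7 CPM, closer than their spread. Among its 4 groups Tat swung most in Hep-Bmal1KO livers on chow, from 317 ± 55.96 CPM at ZT6 to 827 ± 272 at ZT2.

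**Figure D4:**
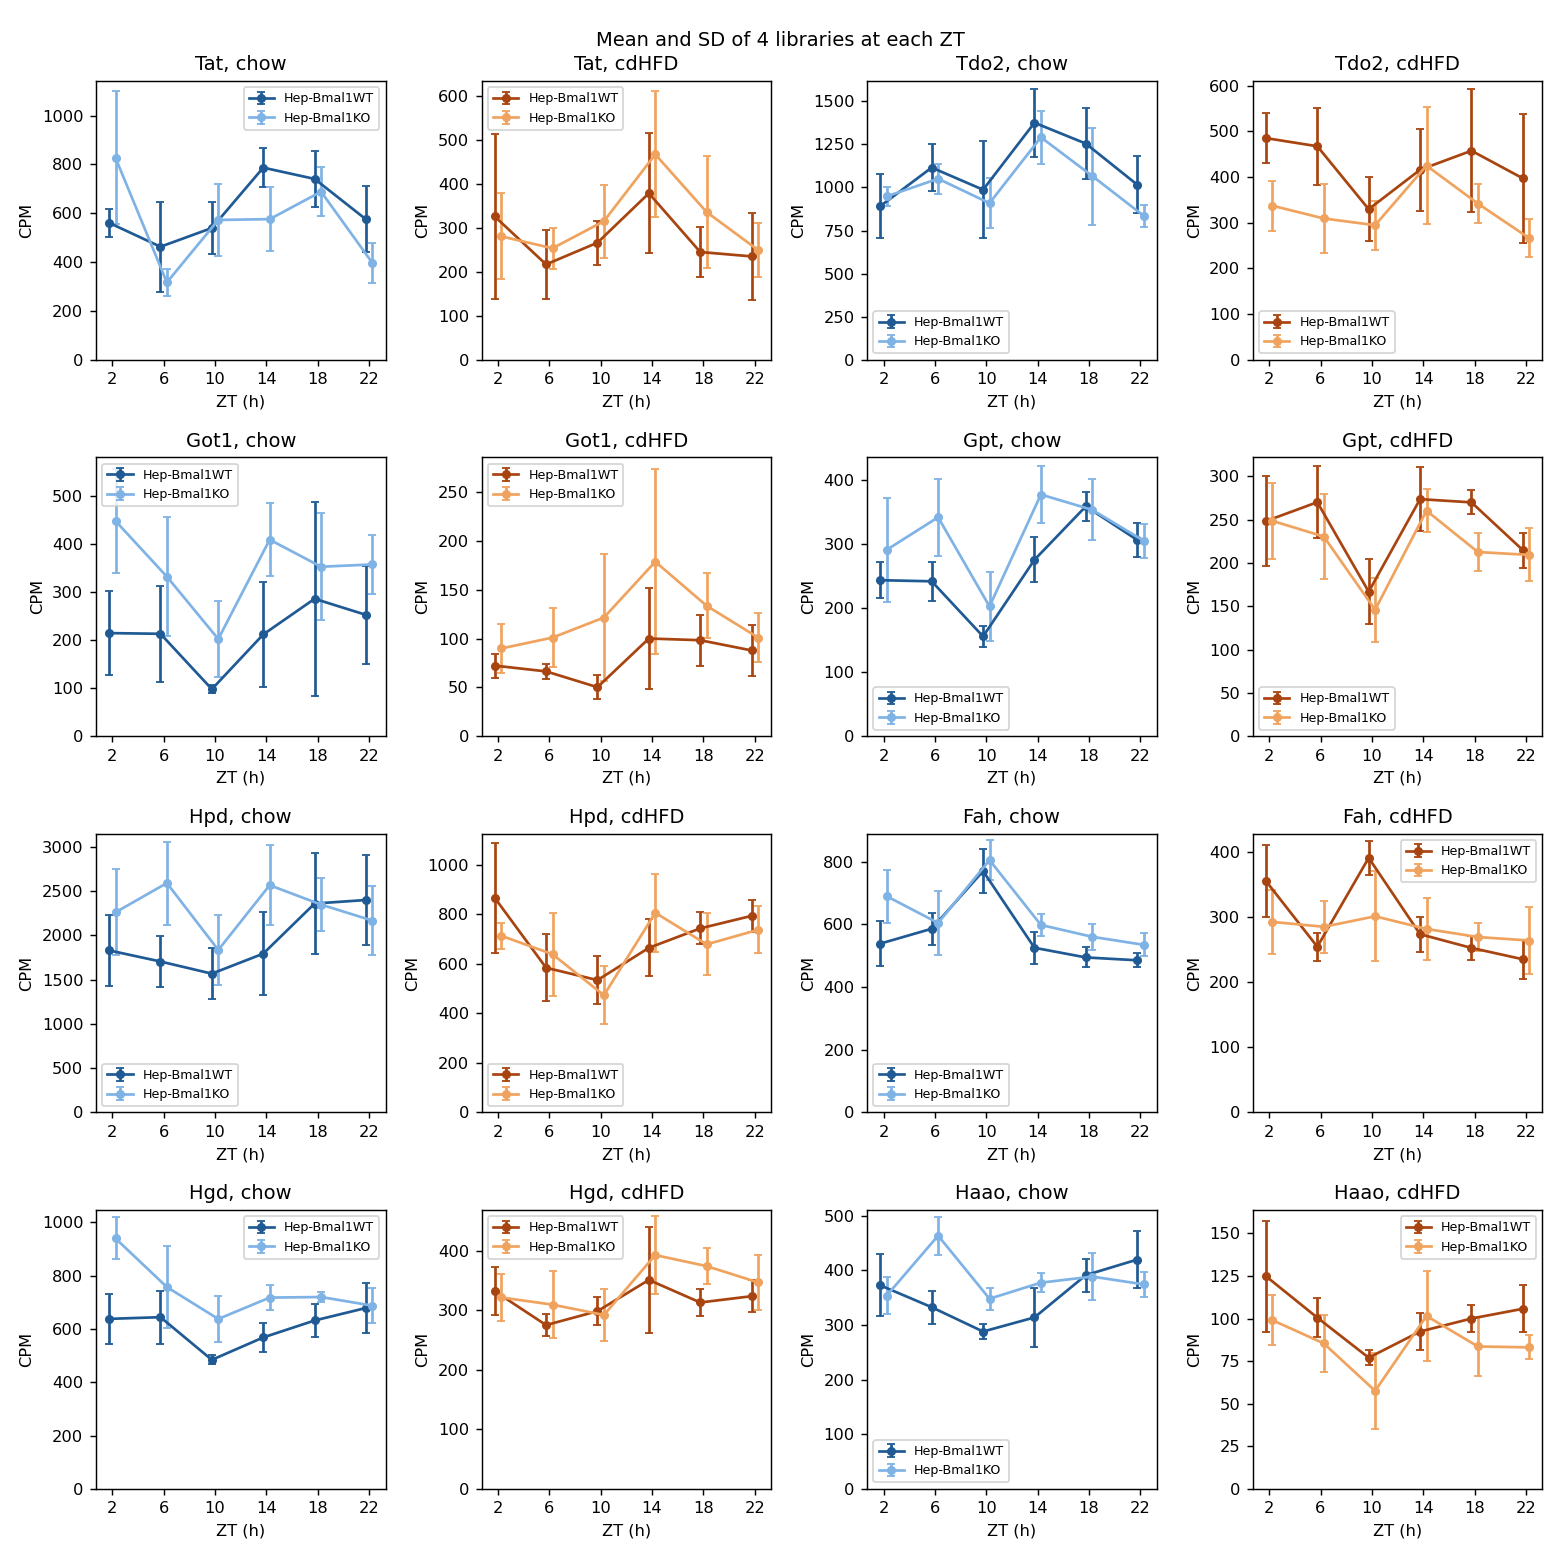
Mean level in CPM (vertical axis, from 0) with the SD of 4 libraries at each ZT (horizontal axis), 1 panel for each enzyme and diet, with Hep-Bmal1WT and Hep-Bmal1KO livers as separate lines. The dip at ZT10 is seen for Got1 in Hep-Bmal1WT livers on chow at 97.5 CPM and for Haao in the same livers at 288 CPM, and Fah is highest at that time.

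Sex was fitted as an added factor over all groups. It was called for 3 of 8 members, 1 higher and 2 lower in females, against 17.2% of all genes, 8.99% higher and 8.24% lower. Hpd was higher in females, by 0.30 (SE 0.047, adjusted p = 4.17e-07), and its female mean exceeded the male mean in all 4 groups, from 2248 ± 478 against 1639 ± 323 CPM in Hep-Bmal1WT livers on chow to 706 ± 138 against 645 ± 169 in Hep-Bmal1KO livers on cdHFD. Tat was lower in females, at -0.32 (SE 0.078, adjusted p = 0.0013), with a lower female mean in all 4 groups and the widest gap in Hep-Bmal1WT livers on cdHFD, 198 ± 63.1 against 346 ± 106 CPM (SD, n = 11 and 13). Tdo2 was lower in females as well, at -0.21 (SE 0.053, adjusted p = 0.0019), with a lower female mean in 3 groups but not in Hep-Bmal1KO livers on cdHFD, at 338 ± 99.5 against 320 ± 63.1 CPM (SD, n = 12 each). Leaving out the 7 libraries kept the count at 3, and without replicate 2 the Tdo2 call was lost (-0.19, adjusted p = 0.062), which left 2. With no count filter 4 were called, Got1 being added at 0.24.

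The other enzymes of the same pathways were counted in lists. Among further genes of tyrosine breakdown and of pterin metabolism, Qdpr, which regenerates tetrahydrobiopterin, stood at -1.62 (SE 0.054) on cdHFD in Hep-Bmal1WT and -1.93 (SE 0.063) in Hep-Bmal1KO livers, and Gstz1, the maleylacetoacetate isomerase that acts just before Fah, at -0.68 (SE 0.043) and -0.89 (SE 0.057). All 4 of these differences were called lower. On chow Gstz1 (0.18), Qdpr (0.24), and Pcbd1 (0.18), which also serves pterin recycling, were higher in Hep-Bmal1KO livers. Of 9 further tested genes of the kynurenine pathway, all 9 were lower on cdHFD in both genotypes, with medians of -1.12 and -1.37. Of all genes 27% were lower in Hep-Bmal1WT and 29.6% in Hep-Bmal1KO livers. The pathway's Kmo, kynurenine 3-monooxygenase, stood at -0.96 (SE 0.058) and -1.23 (SE 0.064), and Ido2, which like Tdo2 opens the ring of tryptophan, stood at -1.57 (SE 0.091) and -2.05 (SE 0.12). On cdHFD, where Tdo2 and Haao were lower in Hep-Bmal1KO livers, Ido2 (-0.67, adjusted p = 5.8e-05) and Kmo (-0.20, adjusted p = 0.033) were lower as well. These were the 2 genes called of the 9, against 9.61% of all genes. On chow 3 of the 9 were called, against 12.6% of all genes, Kynu (0.54) and Aadat (0.49) higher and Kyat3 (-0.53) lower in Hep-Bmal1KO livers. On leaving out the 7 libraries 5 of the 9 were called on chow, Ido2 (-0.24) and Kyat1 (-0.25) being added on the lower side, and the same 2 on cdHFD. Calls over all genes also rose in that setting, from 1960 to 2656 on chow and from 1494 to 2024 on cdHFD.

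The other transaminases moved in both directions. Of 8 tested, 4 were lower and 3 higher on cdHFD in Hep-Bmal1WT livers, and 6 were lower and 2 higher in Hep-Bmal1KO livers. For this and the other diet counts of the paragraph, 55.7% of all genes were called in Hep-Bmal1WT livers, 27% lower. In Hep-Bmal1KO livers 61.9% were called, 29.6% lower. Psat1, of serine synthesis, rose by 3.48 (SE 0.23) and 3.97 (SE 0.30) from a level near the floor. Its means in Hep-Bmal1WT and Hep-Bmal1KO livers were 0.87 and 0.49 CPM on chow and 9.63 and 7.79 on cdHFD. Abat, which degrades GABA, stood at -1.41 (SE 0.065) and -1.67 (SE 0.089). On chow, 3 of the 8 were higher and 1 lower in Hep-Bmal1KO livers, with a median of -0.021, where 12.6% of all genes were called. Among those higher, Oat, the ornithine aminotransferase, stood at 0.95 (SE 0.12) and Agxt, which transaminates glyoxylate, at 0.97 (SE 0.16). Of 16 enzymes that degrade other amino acids, 15 and 16 were lower on cdHFD, with medians of -0.98 and -1.06, among them the histidine ammonia-lyase Hal (-2.18 and -2.34) and the liver glutaminase Gls2 (-1.85 and -2.01). Of 7 glucocorticoid-responsive genes, 2 rose and 3 fell in Hep-Bmal1WT livers, and 4 rose and 3 fell in Hep-Bmal1KO livers, with Tsc22d3 at -0.60 and -0.83. The diet counts of the kynurenine list and of these 3 lists were the same without the 7 libraries.

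Over the 24 group means of log2 CPM, the members most alike in pattern were Hpd and Haao (r = 0.986), and the least alike were Gpt and Fah (r = 0.21). These points share the diet difference, and r is given as a description. By the same measure among 6896 genes, the nearest gene outside the members was Pm20d1 for Haao (r = 0.993), Serpinf1 for Hpd (0.990), Cyp2d10 for Fah (0.986), Suox for Hgd (0.984), Mfsd4b1 for Tdo2 (0.979), Grpel1 for Gpt (0.951), Ass1 for Got1 (0.934), and Sel1l for Tat (0.910). The second nearest were Gcdh, Serpina1c, Upb1, Fdps, Pgrmc1, Mrps16, Lamp2, and Nnmt, in the same order.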

How the data were processed

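Bulk 3′ libraries (BRB-seq) of 96 mouse livers were analysed. After barcode separation the authors used STAR for alignment to mm10, and the deposited values are raw read counts for each gene, not normalized. The methods name HTSeq and featureCounts for counting, versions are not given in the sources used here, and whether molecular identifiers were collapsed is not stated, so depth bounds counting error and nothing else. Reads in rows that name no gene were left out (not aligned, 14.8% to 34.0%; no feature, 5.65% to 11.3%), and 0 columns of samples were unused. All groups come from the deposited labels. Replicate numbers follow accession order.

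Tests covered the 15548 of 55487 genes whose counts summed to 100 or more over the whole set, with edgeR 4.0.16 (TMM, quasi-likelihood, Benjamini-Hochberg) in R 4.3.3, fitting ZT as a factor within each comparison, and genotype, diet, and ZT combined for sex. Rhythms used a cosine and a sine term of 24 hours, and amplitude and peak time were fitted by least squares to variance-stabilised values from DESeq2 1.42.0. Each gene's calls were repeated under DESeq2, its size factors, other count filters, sex as a covariate, each sex, each replicate number left out, and without 7 libraries. A library was set among those 7 where its values for 10 clock genes and for 20 genes picked at the other ZTs both lay past the midpoint between genotypes. Scripts were tested on simulated data. The genes named are the 8 members, at most the 3 of smallest p from each list and comparison, and for each member the 2 genes of most similar pattern. A gene of a list, and the counts over that list, are not reported here. The members and lists were chosen with earlier results of these data known. Positions are from RefSeq's GRCm38.p6. Nothing states that mice of a group were unrelated, so p-values measure the spread between these mice.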

Additional observations from a re-analysis of the deposited data

Results flagged for a closer look

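Within the groups of 4 libraries, 9 of the 192 combinations of member and group held 1 library far from the other 3, by Dixon's ratio at its 95% critical value, and chance alone is expected to give about 1 in 20. Tdo2 read 343 CPM in Hep-Bmal1WT cdHFD ZT6 replicate 3, against 498 to 529 in the others, and 691 CPM in Hep-Bmal1KO chow ZT10 replicate 4, against 955 to 999.5. Got1 read 178 CPM in Hep-Bmal1WT cdHFD ZT14 replicate 1, against 67.1 to 78.5. That library is among the 7 that lay against their genotype label. Got1 also read 52.4 CPM in Hep-Bmal1KO cdHFD ZT2 replicate 4, against 96.6 to 105. Gpt read 179 CPM in Hep-Bmal1KO cdHFD ZT18 replicate 4, against 220.4 to 228, and Hpd read 698 CPM in Hep-Bmal1WT cdHFD ZT22 replicate 3, against 819 to 837. Fah read 429.8 CPM in Hep-Bmal1WT cdHFD ZT10 replicate 4, against 375 to 381, and 450.3 CPM in Hep-Bmal1KO chow ZT6 replicate 4, against 653 to 659. The latter library is also among the 7. Hgd read 509 CPM in Hep-Bmal1WT chow ZT10 replicate 2, against 475 to 477.

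The genotype effect differed between the diets for Gpt (-0.41) and Haao (-0.37) in the interaction test of edgeR.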

How the results depend on the processing

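The diet results for all 8 members kept their direction and their side of the threshold under every alternative run, with 7 calls in Hep-Bmal1WT and 8 in Hep-Bmal1KO livers each time. Every run scaled the libraries by TMM or by DESeq2's size factors. Diet differences without such scaling were not tested, and one as small as that of Gpt could depend on it. The genotype calls on chow were 5 of 8 members, and 2 in females only and 2 to 4 with each replicate number left out. Those on cdHFD were 3, and 1 in males only, 1 in females only, and 1 to 4 with a replicate number left out. The genotype by diet calls were 2, and 0 in males only, 1 in females only, and 0 to 2 with a replicate number left out. Rhythm calls in Hep-Bmal1WT livers on chow were 5, and 1 in males only and 2 to 4 with a replicate number left out, and on cdHFD they were 3, and 0 in females only and 0 to 3 with a replicate number left out. In Hep-Bmal1KO livers 0 rhythms became 1 on chow with DESeq2, without the 7 libraries, and at an unadjusted p under 0.01, and became 1 on cdHFD with these and with no count filter, with 0 to 1 when a replicate number was left out. The rhythm difference by diet in Hep-Bmal1WT livers went from 0 to 1 member with sex as a covariate (Tdo2) and to 1 in males only (Got1). The cause of these changes was not tested, and settings with 1 sex or without a replicate number use fewer libraries. Each replicate number held mostly mice of 1 sex, so these 2 kinds of setting are not independent.

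Signs turned only for values that had not been called. On cdHFD the genotype effect of Fah was 0.099 in females only and that of Hpd ran from -0.15 to 0.044 with each replicate number left out. The sex effect of Haao ran from -0.032 to 0.063 with each replicate number left out, and the peak time difference of Hpd by diet in Hep-Bmal1WT livers was -0.45 h in males only. Of the 29 amplitude differences with an unadjusted p of at least 0.05, 19 changed sign under some alternative.

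Over all genes, genotype calls on chow ran from 578 (females only) to 2656 (without the 7 libraries) around 1960, on cdHFD from 522 (without replicate 2) to 2024 around 1494, and for genotype by diet from 103 to 919 around 473. Sex calls ran from 1585 to 2883 around 2679. Rhythm calls ran from 1066 to 3486 around 2969 and from 384 to 2596 around 2264 in Hep-Bmal1WT livers on chow and cdHFD, and from 137 to 1401 around 675 and from 130 to 1316 around 596 in Hep-Bmal1KO livers. Rhythm differences ran from 0 to 179 around 61 and from 0 to 164 around 66 between genotypes on chow and cdHFD, and from 234 to 1158 around 963 and from 3 to 325 around 141 between diets. No paired analysis was possible because the labels carry no replicate numbers and the numbers used here follow accession order. The 6 ZTs with 4 libraries each limit the rhythm tests.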
